A study of Mus musculus with 12 samples.

Results

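The 38 genes described here encode the protein folding machinery of the endoplasmic reticulum (ER) and the sensors and regulators of its stress response. They were taken by gene symbol from a count table of 24391 symbols, and all 38 were present and tested. They fall into 17 chaperones and folding enzymes, 7 degradation genes, 10 sensors and ATF4 branch genes, and 4 genes of translocation and signal peptide removal. The counts came from CD11b dendritic cells (DCs) of wild-type C57BL/6J mice of 8 to 12 weeks, bought from Charles River. Under xylazine and ketamine, every animal had been given a replication-deficient adenovirus through the trachea. The vector was either empty (AdCL) or expressed biologically active porcine TGF-β1 (AdTGFb1), and the series title places the cells in established pulmonary fibrosis. Experiment 1 held AdCL DC 7, 8 and 9 and AdTGFb1 DC 14, 52 and 54. Experiment 3 held AdCL DC 943, 944 and 949 and AdTGFb1 DC 954, 955 and 956. The sources used here do not give the organ, the sort gate, the time after the vector or whether each library came from a separate mouse, so p-values measure only the spread between these libraries. In bulk samples, fewer cells of a type and less RNA per cell cannot be told apart.

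Secreted and membrane proteins enter the ER through the Sec61 channel, are folded there by chaperones and disulfide isomerases, and are sent back to the cytosol for degradation when folding fails. Unfolded protein engages a trio of membrane sensors, IRE1 (Ern1), PERK (Eif2ak3) and ATF6. IRE1 splices Xbp1 mRNA, PERK slows translation while ATF4 is made, and cleaved ATF6 enters the nucleus; the resulting factors raise chaperone, degradation and amino acid genes. Dendritic cells are known to rely on the IRE1 and XBP1 arm, and PERK and IRE1 activity, Xbp1 splicing and ATF6 cleavage are not visible in gene counts.

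The chaperone genes are known for a shared promoter element, the ER stress response element (ERSE), which NF-Y and ATF6 or XBP1 bind. Its letters, CCAAT, any 9 bases and CCACG, were searched on both strands in the 250 bases before each RefSeq start (build GRCm38.p6; the counts were made on mm9, so coordinates are of the promoter table only). Of the genes that carry that element, Canx, Pdia6, Dnajc3, Creld2 and Derl3 are not printed. By edgeR none of these was called for the vector, except Creld2, lower with a term for sex. The stretches below carry the element in the other genes, whose RNA is compared here. Each runs 5′ to 3′ along the gene's own strand, with the element in capitals and 20 bases on each side; an element on the opposite strand reads as its reverse complement.
Hspa5, chr2:34772005-34772063, plus strand, 65 to 47 bases before the start: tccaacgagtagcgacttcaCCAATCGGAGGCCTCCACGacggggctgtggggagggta
Hsp90b1, chr10:86705618-86705676, minus strand, 212 to 194 bases before the start: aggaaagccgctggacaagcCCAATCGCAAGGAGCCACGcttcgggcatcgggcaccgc
Hsp90b1, chr10:86705513-86705571, minus strand, 107 to 89 bases before the start, element on the opposite strand: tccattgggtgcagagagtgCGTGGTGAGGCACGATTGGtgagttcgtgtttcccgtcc
Calr, chr8:84847055-84847113, minus strand, 162 to 144 bases before the start, element on the opposite strand: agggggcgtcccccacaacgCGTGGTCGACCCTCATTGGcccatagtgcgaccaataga
Ero1lb, chr13:12565662-12565720, plus strand, 201 to 183 bases before the start, element on the opposite strand: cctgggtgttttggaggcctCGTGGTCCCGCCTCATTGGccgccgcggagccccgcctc
Syvn1, chr19:6046512-6046570, plus strand, 44 to 26 bases before the start: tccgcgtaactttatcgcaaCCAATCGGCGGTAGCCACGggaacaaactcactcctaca
A second form, ERSE-II (ATTGG, any 1 base and CCACG), and the C/EBP-ATF response element (CARE, TGATGNAA), which ATF4 binds, were searched the same way. CARE matches of Herpud1 and Asns are not printed. The 2 stretches below carry an element in a degradation gene and in an ATF4 target that were lower with AdTGFb1.
Herpud1, ERSE-II, chr8:94386357-94386407, plus strand, 52 to 42 bases before the start: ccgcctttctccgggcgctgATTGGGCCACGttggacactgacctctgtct
Chac1, CARE on the opposite strand, chr2:119351029-119351076, plus strand, 193 to 186 bases before the start: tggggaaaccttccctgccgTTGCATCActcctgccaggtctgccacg

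Library totals ran from 10099912 to 15594546 counts, and levels are given as CPM (a gene's share of its library's counts, scaled to a fixed total) on TMM-scaled library sizes, on which 3 counts amount to 0.181 to 0.310 CPM. Within groups, log2 CPM correlated between libraries with Pearson r from 0.896 to 0.942. Ddx3y and Xist marked AdCL DC 7, 8 and 9 and AdTGFb1 DC 14 as male and the other 8 libraries as female, so all AdCL libraries of experiment 1 were male and all libraries of experiment 3 female. The 8 CD11b DC markers were present in all 12 libraries, summing to 7345 to 12884 CPM, with Itgax at 788 to 1241 CPM and Itgam at 276 to 561 CPM. Of the 8, 5 were lower with AdTGFb1 over both experiments (H2-Ab1, Cd209a, Zbtb46, Flt3 and Irf4) and 1 was higher (Sirpa). Cd209a ran from 129 to 411 CPM in AdCL and from 20.4 to 116 CPM in AdTGFb1. Zbtb46 ran from 109.6 to 179 CPM in AdCL and, in AdTGFb1, from 29.9 to 56.25 CPM. Irf4 ran from 187 to 521 CPM in AdCL and from 82.8 to 219 CPM in AdTGFb1. The 10 mature migratory DC markers summed to 4187 to 6360 CPM in the 6 AdCL libraries and to 1401 to 2162 CPM in the 6 AdTGFb1 libraries, with 8 of the 10 lower over both experiments. With their level as a term beside the vector, 0 of the 38 genes were called, as were 0 of all 13221 genes tested. At an unadjusted p under 0.05 there were 2 of the 38 and 870 of all genes (DESeq2 was not run with it). The sums of these markers did not overlap between the vectors, so this fit can hardly separate the term from the vector. It shows nothing about the 38 genes in particular. The 9 monocyte and macrophage markers summed to 2637 to 2799 CPM in AdCL of experiment 1, 4168 to 4664 in AdTGFb1 of experiment 1, 3997 to 4684 in AdCL of experiment 3 and 5874 to 6881 in AdTGFb1 of experiment 3. The 8 endothelial markers summed to 176 to 572 CPM in AdCL of experiment 1 and to 20.6 to 144 CPM in the other 9 libraries. Plasma cells, which are rich in ER chaperones, have Mzb1 and Tnfrsf17 as defining markers, and these reached at most 0.201 and 1.00 CPM. The other genes of the plasma and B cell list were present at low levels, with Sdc1 at 10.9 to 97.8 CPM, Tnfrsf13b at 4.69 to 19.1 CPM and Cd79b up to 7.05 CPM, and the list summed to 30.6 to 103 CPM. The part of these differences in the results below was not tested, except where a value is given.

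Most of the 38 genes did not pass the test for the vector, and those that did were mainly lower with AdTGFb1. In edgeR's quasi-likelihood test over both experiments, with the experiment as a term and Benjamini-Hochberg adjustment over 13221 genes (called at adjusted p under 0.05), 9 of 38 were lower and 1 was higher. Of all genes tested, 17.2% were called, 10.4% lower and 6.78% higher. Of the 10 sensors and ATF4 branch genes 5 were lower (Atf4, Ddit3, Ppp1r15a, Chac1 and Xbp1) and 0 higher, and the median log2 fold change of the 10 was -0.61. That median includes the scarce Asns, Trib3 and Chac1, each with a mean under 10 CPM, and Asns and Trib3 were not called. Of the 17 chaperones and folding enzymes 3 were lower (Hspa5, Hyou1, Ero1lb) and 1 was higher (Pdia4), with a median of -0.08. Of the 7 degradation genes 1 was lower (Herpud1; list median -0.19), and of the 4 translocation genes 0 were called (median -0.11; 0 of 4 also had an unadjusted p under 0.05, and 0 were called by DESeq2). The median over all 38 was -0.20, against -0.002 over all genes tested.

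More genes passed the test in experiment 1 than in experiment 3. Sex differed between the vectors in experiment 1 alone, and no term for sex was fitted within an experiment. Within experiment 1, 11 of 38 genes were lower and 4 higher, where 24.7% of all genes were called, 14.1% lower and 10.6% higher. Within experiment 3, 1 of 38 was lower and 0 were higher, where 6.43% of all genes were called, 4.46% lower and 1.97% higher. At an unadjusted p under 0.05 in experiment 3, 9 of 38 were lower and 1 higher, beside 1430 and 998 of all 13221 genes. DESeq2 called 2 lower and 1 higher (Hspa5, Hyou1 and Atf6), where it called 8.61% of all genes, 5.51% lower and 3.10% higher. In CPM, the 3 AdTGFb1 libraries lay below the 3 AdCL libraries for 17 of 38 genes in experiment 1 (21.6% of all genes) and for 9 in experiment 3 (12.9% of all genes). They lay above them for 6 genes in experiment 1 (18.8% of all genes) and for 1 in experiment 3 (11.5% of all genes). All 6 AdTGFb1 libraries lay below all 6 AdCL libraries for 1 gene, Chac1 (2.63% of the 38 and 4.46% of all genes), and above them for 0 (1.86% of all genes). The difference between the experiments itself passed the test for 5 of the 38 genes, described further down, where 6.02% of all genes passed, 2.59% with a negative and 3.43% with a positive difference. Log2 changes are given ± SE, with edgeR's adjusted p.

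**Figure D1:**
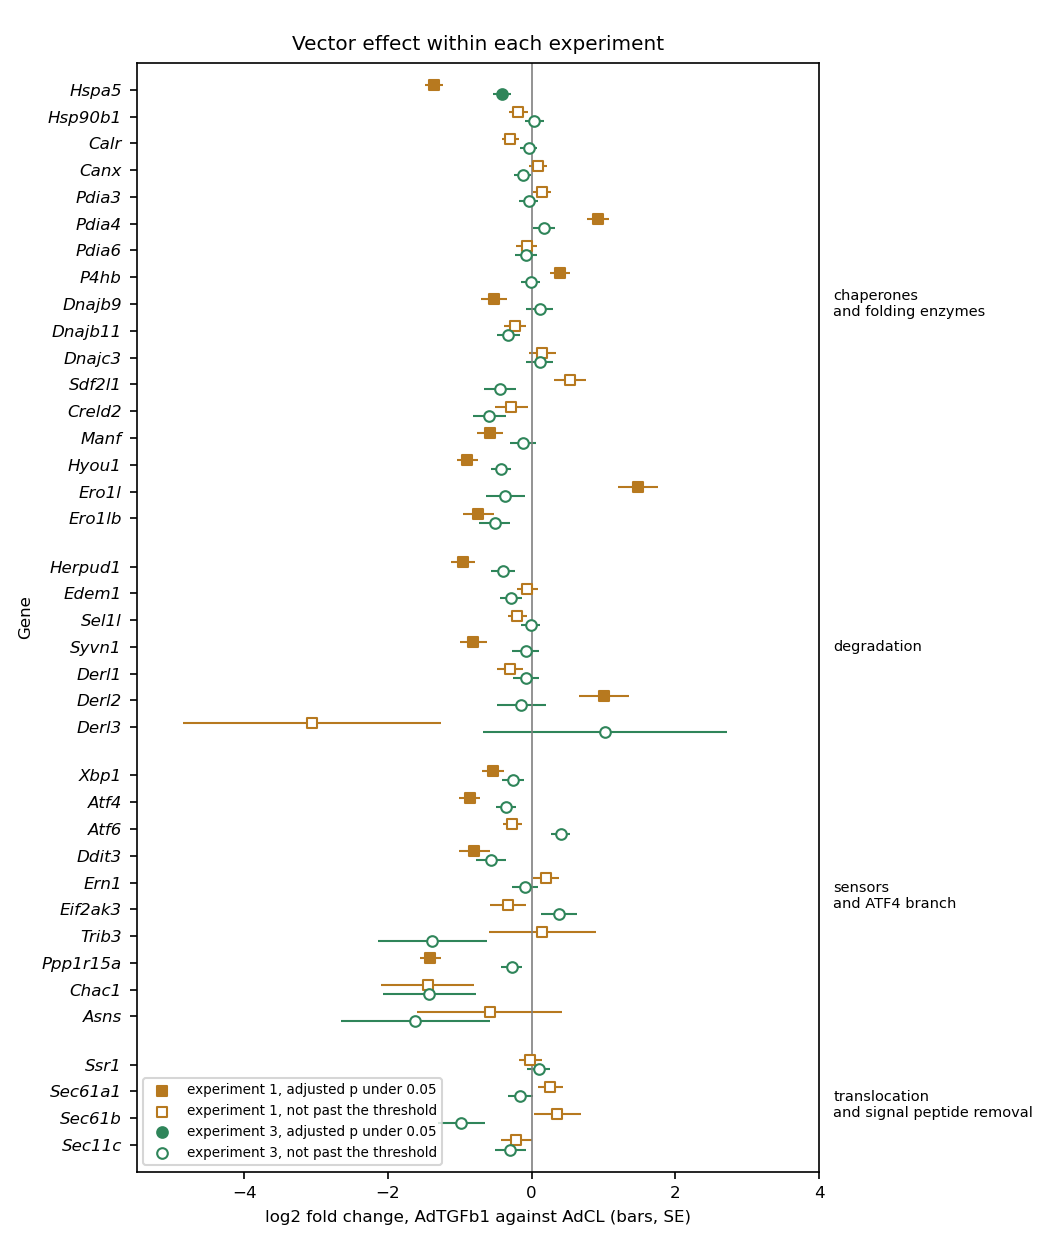
Log2 fold change of AdTGFb1 against AdCL (x axis) for each of the 38 genes (y axis, by role) within experiment 1 (squares) and experiment 3 (circles), with the SE as bars and filled symbols at adjusted p under 0.05. In experiment 1, 15 symbols are filled, 11 of them left of 0; in experiment 3 only the circle of Hspa5 is filled.

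Hspa5 (BiP), the Hsp70 chaperone of the ER lumen that also holds the sensors inactive, was the most abundant of the 38 by CPM. Its levels were 8249.8, 7245 and 7466 CPM in AdCL and 3098, 3072 and 2790.4 CPM in AdTGFb1 of experiment 1. In experiment 3 they were 2648, 3296 and 2922 CPM in AdCL and 2040.2, 2549.9 and 2085 CPM in AdTGFb1. The AdCL libraries of experiment 1 stood far above the other 9 libraries, and within each experiment the vectors did not overlap. AdTGFb1 libraries averaged 39.0% of the AdCL mean in experiment 1 (log2 fold change -1.36 ± 0.13, adjusted p = 1.10e-07) and 75.3% in experiment 3 (-0.41 ± 0.12, adjusted p = 0.048). The experiment 3 call held in 2 of 12 fits that left out 1 library (without AdCL DC 943 or AdTGFb1 DC 955), reached an adjusted p of up to 0.236 in the others, and was lost with RLE size factors, with no low-count filter and with a stricter filter. Over both experiments Hspa5 had a log2 change of -0.88 ± 0.15 (adjusted p = 0.000403), and -0.69 (adjusted p = 0.00455) once sex was a term. The fit with sex takes the vector effect as the same in both experiments, although a difference between them was called for Hspa5. Within AdTGFb1 of experiment 1, the male DC 14 stood at 3098 CPM and the female DC 52 and 54 at 3072 and 2790.4 CPM. With 1 male library these values cannot show the part of sex.

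The partners of BiP moved less evenly. Hyou1, a large Hsp70 relative that exchanges nucleotide on BiP, stood at 414, 391 and 453 CPM in AdCL and 198, 253 and 227 CPM in AdTGFb1 of experiment 1. In experiment 3 it stood at 224, 232 and 229 CPM in AdCL and 193, 173 and 143 CPM in AdTGFb1. The groups did not overlap in either experiment. Its log2 fold change was -0.66 ± 0.12 (adjusted p = 0.000768) over both, -0.89 ± 0.14 (adjusted p = 7.55e-05) in experiment 1 and -0.43 ± 0.14 (adjusted p = 0.0808) in experiment 3. The J-domain proteins that bring clients to BiP were not called over both experiments: Dnajb9 had a log2 change of -0.21 ± 0.15 (adjusted p = 0.408), Dnajb11 -0.28 ± 0.12 (adjusted p = 0.11) and Dnajc3 0.13 ± 0.14 (adjusted p = 0.583). Dnajb9, which binds aggregation-prone chains, was lower within experiment 1, with 101, 116 and 106 CPM against 74.2, 74.0 and 76.1 CPM (log2 change -0.52 ± 0.19, adjusted p = 0.0431). That call held in 2 of 12 left-out fits (without AdCL DC 943 or AdTGFb1 DC 955) and rose to an adjusted p of 0.154. In experiment 3 it ran from 36.3 to 60.5 CPM in AdCL and from 47.4 to 53.7 CPM in AdTGFb1, overlapping. Manf, a small secreted protein that binds BiP, was lower in experiment 1 with 223, 209 and 172 CPM against 111, 149 and 144 CPM (log2 change -0.58 ± 0.18, adjusted p = 0.0225), a call lost without AdCL DC 7 or 8 or AdTGFb1 DC 14 (adjusted p up to 0.124). In experiment 3 Manf overlapped, with 83.2 to 125 CPM in AdCL and 75.1 to 103 CPM in AdTGFb1. Sdf2l1, a partner of Dnajb11, had log2 fold changes of 0.53 ± 0.22 (adjusted p = 0.0861) in experiment 1 and -0.45 ± 0.22 (adjusted p = 0.298) in experiment 3, and the difference between them was -0.98 ± 0.32 (adjusted p = 0.0669). Creld2, a stress-induced ER protein, had a log2 change of -0.43 ± 0.16 (adjusted p = 0.0782) over both experiments, with 31.1, 33.1 and 46.0 CPM in AdCL and 25.7, 26.8 and 20.8 CPM in AdTGFb1 of experiment 3, which did not overlap.

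Other abundant chaperones showed smaller differences, none of them called for the vector by edgeR; DESeq2 called Calr lower in experiment 1 (adjusted p = 0.0203). Hsp90b1 (GRP94), the ER Hsp90 that folds Toll-like receptors and integrins, stood at 2082, 2041 and 2176 CPM in AdCL and 1674, 1859 and 2012 CPM in AdTGFb1 of experiment 1. It stood at 1540.2, 1344 and 1547 CPM and 1397, 1822 and 1319 CPM in the same order in experiment 3. The vectors did not overlap in experiment 1 and overlapped in experiment 3, and the log2 fold change over both was -0.07 ± 0.10 (adjusted p = 0.686). Calr (calreticulin), a lectin chaperone of glycoproteins, gave 2085, 2141 and 2059.8 CPM against 1611, 1686 and 1816 CPM in experiment 1 and 1351, 1606 and 1653 CPM against 1541, 1594 and 1343 CPM in experiment 3. Calr had a log2 change of -0.30 ± 0.12 (adjusted p = 0.0754) in experiment 1, -0.04 ± 0.12 (adjusted p = 0.914) in experiment 3 and -0.17 ± 0.10 (adjusted p = 0.265) over both. Canx (calnexin), its membrane-bound relative, ran from 666 to 851 CPM over the 12 libraries (log2 change -0.02 ± 0.10, adjusted p = 0.922). A pseudogene named for Calr exists and reads could be split with it, and 1810014B01Rik overlaps Hsp90b1 on the other strand.

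The share of Hspa5 in the summed level differed between the groups. In AdCL of experiment 1, Hspa5 made up 37.5% ± 1.54 (SD, n = 3) of the summed CPM of the 38 genes. The share was 22.4% ± 1.93 in AdTGFb1 of experiment 1, 24.1% ± 1.49 in AdCL of experiment 3 and 20.5% ± 1.22 in AdTGFb1 of experiment 3 (SD, n = 3 each). The CPM of Hspa5 was 3.65 ± 0.279 times that of Hsp90b1 in AdCL of experiment 1. It was 1.63 ± 0.233 times in AdTGFb1 of experiment 1, 2.02 ± 0.384 times in AdCL of experiment 3 and 1.48 ± 0.0925 times in AdTGFb1 of experiment 3. Neither quantity overlapped between the vectors within an experiment, and in both the AdCL libraries of experiment 1 stood apart from the rest. The other 37 genes together summed to 12734 ± 97.6 CPM in AdCL and 10379.8 ± 633 CPM in AdTGFb1 of experiment 1, and to 9275 ± 432 and 8646 ± 847 CPM in experiment 3.

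**Figure D2:**
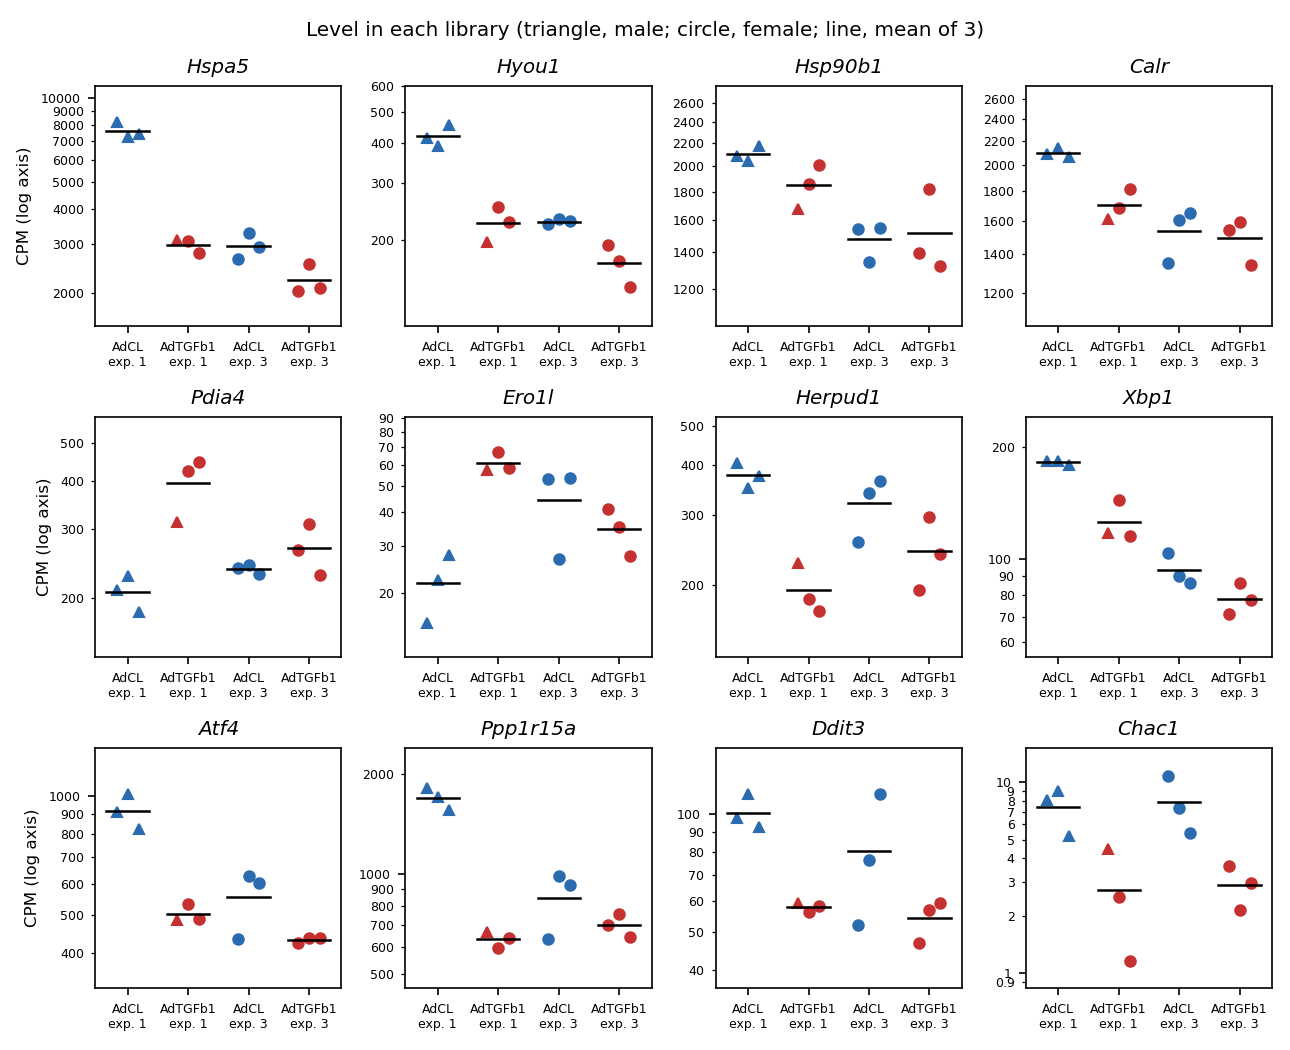
CPM (log y axis) of 12 of the genes in each library (points; triangles for libraries read as male, circles for female; blue AdCL, red AdTGFb1), with the mean of 3 libraries as a line. Hspa5 stands at 7245 to 8249.8 CPM in AdCL of experiment 1 and at 2040.2 to 3296 CPM elsewhere, whereas Hsp90b1 and Calr stay within 1319 to 2176 CPM.

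Enzymes of disulfide formation held 3 of the 4 genes that were higher with AdTGFb1 in experiment 1 (Pdia4, P4hb and Ero1l; the other was Derl2). Pdia4 (ERp72), a protein disulfide isomerase, stood at 209.9, 227 and 184 CPM in AdCL and 313, 424 and 445 CPM in AdTGFb1 of experiment 1, and at 239, 244 and 231 CPM and 266, 309.3 and 229.5 CPM in experiment 3. It rose 1.902 times in experiment 1 without overlap (log2 change 0.93 ± 0.15, adjusted p = 0.000112), while in experiment 3 the groups overlapped (0.17 ± 0.15, adjusted p = 0.625). Over both experiments its log2 fold change was 0.55 ± 0.15 (adjusted p = 0.0127), and it was 0.32 once sex was a term (adjusted p = 0.112) and 0.39 with a term for the endothelial markers (adjusted p = 0.0527). In the male AdTGFb1 DC 14 it stood at 313 CPM, below DC 52 and 54, and 1 male library cannot show the part of sex. The fit with a term for sex takes the vector effect as the same in both experiments, although a difference between them was called for Pdia4. P4hb, the classical protein disulfide isomerase and a subunit of prolyl 4-hydroxylase, was also higher in experiment 1, with 422, 516 and 450.1 CPM against 524, 653 and 644 CPM (log2 change 0.39 ± 0.14, adjusted p = 0.0398). That call was lost without AdCL DC 7 or 9 or AdTGFb1 DC 52 or 54 (adjusted p up to 0.139), and in experiment 3 P4hb ran from 355 to 446 CPM over both vectors. Pdia3 (ERp57), which works with calnexin and in MHC class I loading, had a log2 change of 0.05 ± 0.10 (adjusted p = 0.777) over both experiments and Pdia6 had -0.08 ± 0.11 (adjusted p = 0.71); their levels over the 12 libraries ran from 502 to 828 and 186 to 322 CPM. Catsper2 overlaps Pdia3 on the other strand.

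The oxidases that recharge protein disulfide isomerase went in opposite directions in experiment 1. Ero1l (Ero1α) stood at 15.5, 22.3 and 27.8 CPM in AdCL and 57.3, 67.4 and 58.4 CPM in AdTGFb1 of experiment 1, 2.79 times the AdCL mean (log2 change 1.48 ± 0.27, adjusted p = 0.000363). In experiment 3 it stood at 53.2, 26.9 and 53.9 CPM in AdCL and 41.1, 35.2 and 27.6 CPM in AdTGFb1 (log2 change -0.37 ± 0.27, adjusted p = 0.525), overlapping. Ero1lb (Ero1β) stood at 61.5, 77.2 and 59.5 CPM in AdCL and 46.9, 35.4 and 36.4 CPM in AdTGFb1 of experiment 1. It stood at 68.8, 47.1 and 45.5 CPM and 40.8, 42.1 and 30.0 CPM in experiment 3, so the vectors did not overlap in either. Ero1lb had a log2 change of -0.63 ± 0.16 (adjusted p = 0.0103) over both experiments, -0.74 ± 0.22 (adjusted p = 0.0173) in experiment 1 (lost without AdCL DC 8 or AdTGFb1 DC 52 or 54, adjusted p up to 0.0973) and -0.52 ± 0.22 (adjusted p = 0.203) in experiment 3. Once sex was a term its adjusted p over both was 0.0762, and with a term for the plasma and B cell markers, it was 0.147.

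Among the degradation genes, edgeR called Herpud1 alone over both experiments, and DESeq2 also called Syvn1. Herpud1 is a stress-induced membrane protein that organises the HRD1 ubiquitin ligase complex. Its levels were 404, 349.9 and 376 CPM in AdCL and 227, 185 and 172 CPM in AdTGFb1 of experiment 1, and 256, 339.6 and 365 CPM and 194, 297 and 239 CPM in experiment 3. The vectors were far apart in experiment 1, at 51.6% of the AdCL mean, and overlapped in experiment 3, at 75.9%. The log2 fold change was -0.68 ± 0.14 (adjusted p = 0.00268) over both, -0.95 ± 0.17 (adjusted p = 0.000216) in experiment 1 and -0.40 ± 0.17 (adjusted p = 0.189) in experiment 3, and the call over both held in 12 of 12 left-out fits.

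The ligase itself, Syvn1 (HRD1), was lower in experiment 1 and fell on either side of the threshold over both experiments. It stood at 159.9, 136 and 165 CPM in AdCL and 90.6, 82.5 and 89.9 CPM in AdTGFb1 of experiment 1 (log2 change -0.81 ± 0.19, adjusted p = 0.00246), and at 87.5, 54.3 and 61.9 CPM and 63.2, 54.2 and 74.6 CPM in experiment 3 (-0.08 ± 0.19, adjusted p = 0.884). Over both experiments Syvn1 had a log2 change of -0.45 ± 0.16 (adjusted p = 0.0609), not called. It was called lower by DESeq2 (adjusted p = 0.0435), with no low-count filter (0.0356), with the plasma and B cell markers as a term (0.0484), and without AdCL DC 944, AdCL DC 949 or AdTGFb1 DC 956 (0.0295, 0.0466 and 0.0250). Mrpl49 overlaps it on the other strand. Its partner Sel1l ran from 166 to 286 CPM (log2 change -0.11 ± 0.10, adjusted p = 0.536) and Edem1, which marks misfolded glycoproteins, from 190.4 to 304.6 CPM (-0.17 ± 0.11, adjusted p = 0.339). Of the derlins, membrane proteins of the exit channel, Derl1 ran from 46.0 to 88.6 CPM (log2 change -0.19 ± 0.13, adjusted p = 0.355). Derl2 was higher in experiment 1, with 13.1, 9.95 and 9.39 CPM against 18.6, 15.6 and 31.0 CPM (log2 change 1.01 ± 0.35, adjusted p = 0.0382), a call lost without AdCL DC 8 or 9 or AdTGFb1 DC 54 (adjusted p up to 0.258); Mis12 overlaps it on the other strand. Derl3 was scarce, from 0 to 7.34 CPM and 0 to 71 counts a library with the highest value in AdCL DC 7, and no fold is given for it.

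The sensor genes themselves were mostly not called. Ern1 (IRE1α) ran from 87.2 to 187 CPM (log2 change 0.05 ± 0.14, adjusted p = 0.84 over both experiments) and Eif2ak3 (PERK) from 30.5 to 70.7 CPM (0.02 ± 0.20, adjusted p = 0.955). Atf6 stood at 177, 162 and 168 CPM in AdCL and 143, 142 and 137 CPM in AdTGFb1 of experiment 1, and at 177, 174 and 154 CPM and 246, 207 and 215 CPM in experiment 3. The AdTGFb1 libraries thus lay below the AdCL libraries in experiment 1 and above them in experiment 3, with log2 changes of -0.27 ± 0.14 (adjusted p = 0.16) and 0.40 ± 0.14 (adjusted p = 0.0823), neither past the threshold. Xbp1, the factor whose mRNA IRE1 splices, stood at 183, 183 and 179 CPM in AdCL and 117, 144 and 115 CPM in AdTGFb1 of experiment 1. It stood at 104, 89.9 and 86.3 CPM and 71.4, 86.2 and 77.4 CPM in experiment 3, and the vectors did not overlap in either experiment. Xbp1 had a log2 change of -0.39 ± 0.11 (adjusted p = 0.0223) over both experiments, -0.53 ± 0.15 (adjusted p = 0.013) in experiment 1 and -0.25 ± 0.15 (adjusted p = 0.415) in experiment 3. The call over both was lost without AdCL DC 7, 8 or 9 or AdTGFb1 DC 14 or 54 (adjusted p up to 0.0718), with a term for sex (0.0852), for the endothelial markers (0.0886) and for the plasma and B cell markers (0.120), and with no term for the experiment (0.232). The experiment 1 call was lost without AdCL DC 7 or AdTGFb1 DC 14 or 54 (adjusted p up to 0.0737).

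The ATF4 branch held 4 of the 9 genes that fell over both experiments. Atf4, the factor made when PERK or related kinases slow translation, stood at 909, 1011 and 822 CPM in AdCL and 485, 534 and 489 CPM in AdTGFb1 of experiment 1. In experiment 3 it stood at 434, 628 and 603 CPM in AdCL and 426, 437 and 436 CPM in AdTGFb1. AdCL DC 943, at 434 CPM, lay among the AdTGFb1 libraries of its experiment, and the other two AdCL libraries above them. Atf4 had a log2 change of -0.61 ± 0.12 (adjusted p = 0.00182) over both, -0.86 ± 0.14 (adjusted p = 9.44e-05) in experiment 1 and -0.36 ± 0.14 (adjusted p = 0.153) in experiment 3. Ppp1r15a (GADD34), which restores translation by dephosphorylating eIF2α, stood at 1811, 1708 and 1560.2 CPM in AdCL and 669.7, 597 and 641 CPM in AdTGFb1 of experiment 1. It stood at 635, 985 and 923 CPM and 702, 754 and 647 CPM in experiment 3. AdTGFb1 reached 37.5% of the AdCL mean in experiment 1 (log2 change -1.41 ± 0.15, adjusted p = 4.38e-07) and 82.6% in experiment 3 (-0.28 ± 0.14, adjusted p = 0.327), where DC 943 again lay low; over both it had -0.84 ± 0.18 (adjusted p = 0.00255). Ddit3 (CHOP), a factor tied to stress-induced death, stood at 97.7, 112 and 92.4 CPM in AdCL and 59.3, 56.1 and 58.4 CPM in AdTGFb1 of experiment 1, and at 52.1, 76.1 and 113 CPM and 47.0, 56.8 and 59.3 CPM in experiment 3. Its AdCL values in experiment 3 were widely spread, from 52.1 to 113 CPM, and overlapped AdTGFb1. Ddit3 had a log2 change of -0.68 ± 0.16 (adjusted p = 0.00591) over both, -0.80 ± 0.22 (adjusted p = 0.00901) in experiment 1 and -0.57 ± 0.22 (adjusted p = 0.138) in experiment 3; Mars overlaps it on the other strand. Without AdCL DC 943, 4 genes were called lower in experiment 3 (Hspa5, Atf4, Ddit3 and Ppp1r15a) in place of 1. In that fit 590 of all 13873 genes tested were called lower and 244 higher. Each other left-out fit called at most 1 of the 38 in experiment 3. The calls of Atf4, Ddit3 and Ppp1r15a over both experiments held in 12 of 12 left-out fits and once sex was a term (adjusted p of 0.0149, 0.0325 and 0.0313). Sex varied within a group only in AdTGFb1 of experiment 1, where DC 14 alone was male. The sex term thus rests on that group and on taking the vector effect as the same in both experiments. A difference between the experiments was called for Ppp1r15a.

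The other ATF4 targets among the 38 were scarce. Chac1, a glutathione-degrading enzyme, stood at 8.06, 8.96 and 5.21 CPM in AdCL and 4.47, 2.51 and 1.17 CPM in AdTGFb1 of experiment 1, and at 10.8, 7.33 and 5.43 CPM and 3.63, 2.16 and 2.96 CPM in experiment 3. It was the gene whose 6 AdTGFb1 libraries all lay below the 6 AdCL libraries, at 36.6% of the AdCL mean in experiment 1 and 37.2% in experiment 3, from 17 to 112 counts a library. Its log2 fold change was -1.43 ± 0.44 (adjusted p = 0.0302) over both, similar within experiment 1 (-1.45 ± 0.65, adjusted p = 0.108) and experiment 3 (-1.42 ± 0.65, adjusted p = 0.239). The call over both held in 4 of 12 left-out fits (without AdCL DC 9 or 949 or AdTGFb1 DC 14 or 954; adjusted p up to 0.0781) and was lost with no low-count filter (0.0638) and once sex (0.160), the endothelial markers (0.0699) or the plasma and B cell markers (0.158) were a term. Trib3, a pseudokinase, ran from 0.639 to 10.2 CPM (log2 change -0.62 ± 0.56, adjusted p = 0.509) and Asns, asparagine synthetase, from 0.414 to 10.3 CPM (-1.09 ± 0.74, adjusted p = 0.358), neither called.

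Genes of entry into the ER were not called in either experiment. Ssr1, a subunit of the translocon-associated complex, ran from 149 to 253 CPM (log2 change 0.04 ± 0.12, adjusted p = 0.865) and Sec61a1, the channel, from 74.2 to 147 CPM (0.05 ± 0.14, adjusted p = 0.844). Sec61b, the small channel subunit, stood at 48.9, 25.8 and 36.7 CPM in AdCL and 21.4, 23.4 and 11.8 CPM in AdTGFb1 of experiment 3, which did not overlap (log2 change -0.98 ± 0.33, adjusted p = 0.0852), and overlapped in experiment 1 (0.36 ± 0.33, adjusted p = 0.465). With no low-count filter, or in a separate fit without AdCL DC 7, it was called lower in experiment 3, in place of Hspa5. Sec11c, a signal peptidase subunit, ran from 40.3 to 71.3 CPM (log2 change -0.26 ± 0.16, adjusted p = 0.295).

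**Figure D3:**
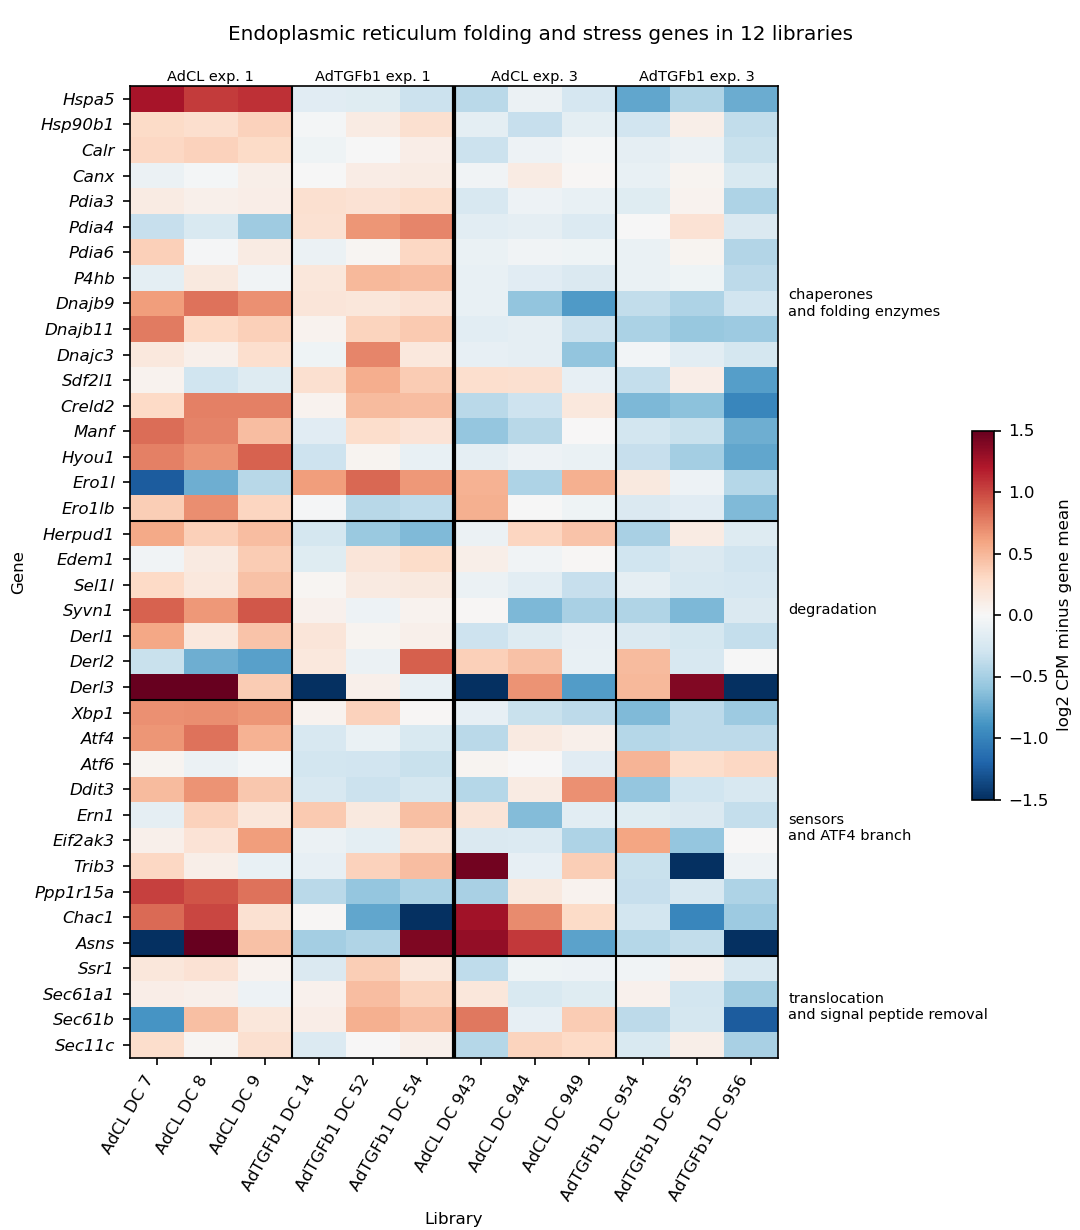
Log2 CPM of each gene minus its mean over the 12 libraries (colour, limited to ±1.5 for display) for the 38 genes (rows, by role) and libraries (columns, by group). The first 3 columns, AdCL of experiment 1, are red for Hspa5, Hyou1, Syvn1, Xbp1, Atf4 and Ppp1r15a and blue for Pdia4, Ero1l and Derl2.

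The vector effect itself differed between the experiments for 5 of the 38 genes. The difference (experiment 3 minus experiment 1, log2) was 0.95 ± 0.17 (adjusted p = 0.00217) for Hspa5 and 1.14 ± 0.21 (adjusted p = 0.00184) for Ppp1r15a, which fell by more in experiment 1 than the difference seen in experiment 3. On the same scale, as a log2 difference, it was -1.85 ± 0.38 (adjusted p = 0.00509) for Ero1l and -0.76 ± 0.22 (adjusted p = 0.0395) for Pdia4, which rose in experiment 1 and were not called in experiment 3. For Atf6 the log2 difference was 0.67 ± 0.19 (adjusted p = 0.0396). Those of Hspa5, Ppp1r15a and Ero1l held in 12 of 12 left-out fits. That of Pdia4 held in 4 (without AdCL DC 8 or 944 or AdTGFb1 DC 14 or 955, adjusted p up to 0.117) and that of Atf6 in 1 (without AdTGFb1 DC 955, up to 0.14). No difference was called for Hyou1 (log2 change 0.47 ± 0.20, adjusted p = 0.184), Herpud1 (0.55 ± 0.24, adjusted p = 0.176), Atf4 (0.51 ± 0.20, adjusted p = 0.14), Ddit3 (0.23 ± 0.30, adjusted p = 0.739) or Chac1 (0.02 ± 0.89, adjusted p = 0.996), which does not show that their effects were alike. Marker lists also differed in their vector effect: the alveolar macrophage markers summed to 65.2 to 172 CPM in AdCL and 1065 to 2276 CPM in AdTGFb1 of experiment 1, and to 212 to 626 and 66.9 to 126 CPM in experiment 3. Of the 7 tested, 3 were called for the difference. The difference was also called for 7 of the 8 endothelial markers and for 4 of the 14 dissociation and immediate early genes. Of these 14, 4 were lower and 1 higher in experiment 1 and 0 lower and 5 higher in experiment 3. Their part in the differences of the 5 genes was not tested. Sex differed between the vectors in experiment 1 alone (AdCL DC 7, 8 and 9 and AdTGFb1 DC 14 male), and all of experiment 3 was female. It was not a term in the test of the difference, so the part of sex was not tested either.

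Between the experiments, with the vector as a term, 12 of 38 genes were lower in experiment 3 and 0 were higher, where 6.43% of all genes were called, 2.86% lower and 3.57% higher. At an unadjusted p under 0.05, 1 of 38 was higher (Atf6, log2 change 0.33 ± 0.13, adjusted p = 0.138), beside 1366 of all 13221 genes. DESeq2 called 17 lower and 0 higher, where it called 10.2% of all genes, 4.85% lower and 5.33% higher. Among the 14 dissociation and immediate early genes, 2 cytosolic chaperone genes were also lower in experiment 3 and 3 genes higher (Fos, Zfp36 and Btg2). Hspa1a ran from 1393 to 2541 CPM in experiment 1 and from 600.5 to 1704 CPM in experiment 3, and Hspa1b from 1437 to 2559 and from 527 to 1809 CPM. The monocyte and macrophage markers were higher in experiment 3 for 6 of 9, and the part of these lists in the result was not tested. Of the 12, 7 were chaperones and folding genes (Hspa5, Hsp90b1, Dnajb9, Dnajb11, Creld2, Manf and Hyou1), 3 were degradation genes (Sel1l, Syvn1 and Derl1), and the rest were Xbp1 and Atf4. The log2 change was -0.82 ± 0.12 (adjusted p = 0.000472) for Xbp1, -0.75 ± 0.12 (adjusted p = 0.000914) for Dnajb11, -0.94 ± 0.17 (adjusted p = 0.00216) for Creld2 and -0.77 ± 0.14 (adjusted p = 0.00336) for Manf. Hspa5 had a log2 change of -0.90 ± 0.15 (adjusted p = 0.00125), Dnajb9 -0.88 ± 0.15 (adjusted p = 0.00206), Syvn1 -0.82 ± 0.16 (adjusted p = 0.00482) and Hyou1 -0.64 ± 0.12 (adjusted p = 0.00319). Those 8 held in 12 of 12 left-out fits. Hsp90b1 (log2 change -0.40 ± 0.10, adjusted p = 0.028) held in 4, without AdCL DC 943 or AdTGFb1 DC 14, 52 or 955. Derl1 (log2 change -0.49 ± 0.13, adjusted p = 0.0264) was lost without AdCL DC 7, 9, 943, 944 or 949 or AdTGFb1 DC 14 or 956, Sel1l (-0.41 ± 0.10, adjusted p = 0.0199) without AdCL DC 9 or 949. Atf4 (log2 change -0.47 ± 0.12, adjusted p = 0.0268) was lost without AdCL DC 7, 8 or 949. Their highest adjusted p was 0.0734, 0.0751, 0.0691 and 0.0737 in that order.

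Sex moved with the experiments, and once it was a term 6 genes were lower, Pdia4, P4hb, Dnajb11, Creld2, Manf and Xbp1 (in that fit 4.14% of all genes were called, 1.43% lower). Hspa5 then had a log2 change of -0.53 (adjusted p = 0.116), Dnajb9 -0.67 (0.0952), Syvn1 -0.53 (0.212) and Hyou1 -0.60 (0.0582). Among the AdCL libraries alone, where all of experiment 1 were male and all of experiment 3 female, 14 of 38 were lower and 1 higher (of all genes 9.02% were called, 4.89% lower and 4.13% higher). There Hspa5 had a log2 change of -1.37 ± 0.13 (adjusted p = 2.55e-06), Syvn1 -1.18 ± 0.19 (adjusted p = 0.000387), Ppp1r15a -0.998 ± 0.15 (adjusted p = 0.000161) and Ero1l 1.03 ± 0.27 (adjusted p = 0.0195). Among the AdTGFb1 libraries alone, 7 were lower and 1 higher (of all genes 7.81% were called, 3.2% lower and 4.61% higher), with Creld2 at a log2 change of -1.09 ± 0.23 (adjusted p = 0.00387), Dnajb11 at -0.80 ± 0.16 (adjusted p = 0.00296), Xbp1 at -0.68 ± 0.15 (adjusted p = 0.0071), Hspa5 at -0.42 ± 0.12 (adjusted p = 0.0347) and Atf6 at 0.66 ± 0.14 (adjusted p = 0.0034). Levels of Hspa5 in AdCL of experiment 3 (2648 to 3296 CPM) thus lay beside those in AdTGFb1 of experiment 1 (2790.4 to 3098 CPM). Marker lists stood in different orders over the groups. Their sums follow for AdCL of experiment 1, AdCL of experiment 3, AdTGFb1 of experiment 1 and AdTGFb1 of experiment 3. The monocyte and macrophage markers summed to 2637 to 2799, 3997 to 4684, 4168 to 4664 and 5874 to 6881 CPM. The endothelial markers summed to 176 to 572, 30.5 to 77.8, 20.6 to 25.98 and 71.0 to 144 CPM. The mature migratory DC markers summed to 4795 to 5156, 4187 to 6360, 1727 to 2069.9 and 1401 to 2162 CPM. The part of these lists in the order of the Hspa5 levels was not tested.

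**Figure D4:**
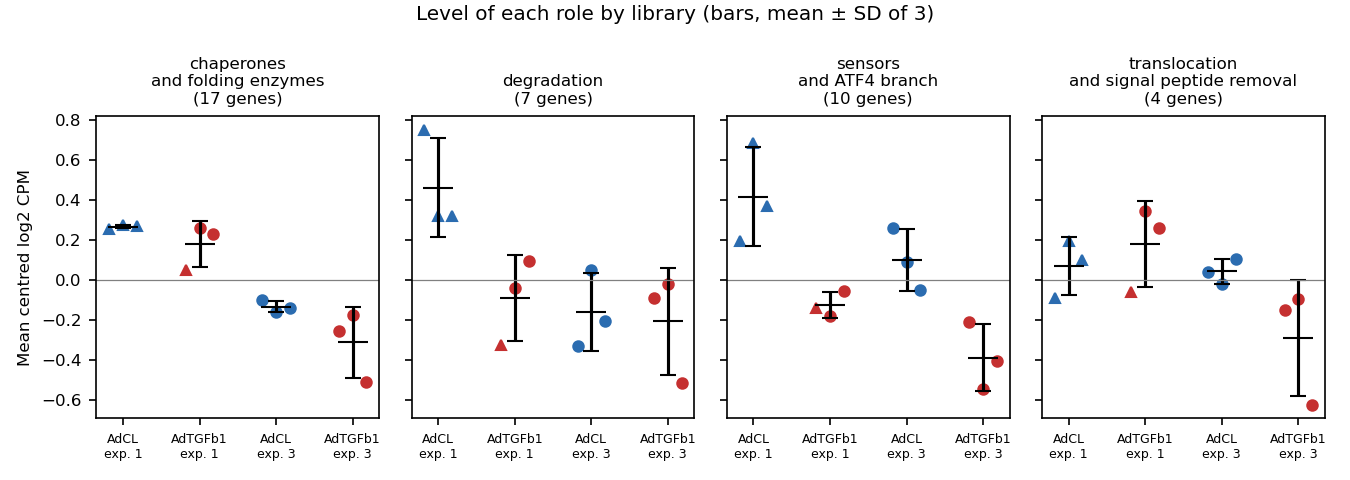
Mean over the genes of each role of log2 CPM centred on the gene's mean over 12 libraries (y axis), for each library (points; triangles male, circles female) by group, with mean ± SD of 3 libraries. Chaperones and folding enzymes average 0.27 in AdCL and 0.18 in AdTGFb1 of experiment 1 and -0.13 and -0.31 in experiment 3, whereas sensors and ATF4 branch genes average 0.42 and -0.13 in experiment 1 and 0.10 and -0.39 in experiment 3; without the scarce Asns, Trib3 and Chac1 the latter average 0.46 and -0.11, and -0.12 and -0.22.

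Averaged by library as centred log2 CPM (each gene against its own mean over the 12 libraries), chaperones and folding enzymes stood at 0.26 to 0.27 in AdCL and 0.05 to 0.26 in AdTGFb1 of experiment 1, and at -0.16 to -0.10 and -0.51 to -0.17 in experiment 3. For these 17 genes the 6 libraries of experiment 1 all lay above the 6 of experiment 3. Sensors and ATF4 branch genes stood at 0.19 to 0.68 in AdCL and -0.18 to -0.05 in AdTGFb1 of experiment 1, and at -0.05 to 0.26 and -0.55 to -0.21 in experiment 3. For these 10 genes each experiment's AdTGFb1 libraries lay below its AdCL libraries, an order that rested in experiment 3 on Asns, Trib3 and Chac1, the scarce members with a mean under 10 CPM. The other 7 stood at 0.41 to 0.51 in AdCL and -0.13 to -0.09 in AdTGFb1 of experiment 1, and at -0.20 to -0.05 and -0.27 to -0.16 in experiment 3. Over these 7 the vectors overlapped in experiment 3, and AdCL of experiment 1 lay above the other 9 libraries. Degradation genes stood at 0.32 to 0.75 in AdCL of experiment 1 and at -0.51 to 0.10 in the other 9 libraries. Without the scarce Derl3 they stood at 0.12 to 0.32 in AdCL and -0.06 to 0.13 in AdTGFb1 of experiment 1, which overlapped, and at -0.10 to -0.004 and -0.25 to -0.19 in experiment 3. These averages are descriptions, with no test, and leaving out scarce genes was chosen after the data were seen.

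Per kilobase of exon, averaged over the 12 libraries, Hspa5 was highest at 935 CPM per kb, followed by Calr at 593 and Hsp90b1 at 430.2. Ppp1r15a at 330.04 and Atf4 at 255 came next, above Pdia3 (222), Canx (167), P4hb (166), Herpud1 (122) and Pdia4 (115 CPM per kb). The sensors were far lower, with Atf6 at 19.0, Ern1 at 17.1 and Eif2ak3 at 7.84 CPM per kb, as was Xbp1 at 36.8 CPM per kb. At the low end stood Chac1 (3.19), Derl2 (2.18), Trib3 (1.96), Asns (1.18) and Derl3 (0.645 CPM per kb). Exon lengths came from the union of GENCODE exons, so the order depends on which transcripts the cells use.

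Of the 38 genes, 32 had a promoter in the RefSeq table, Ero1l and Ero1lb under their current names Ero1a and Ero1b. The full ERSE letters occurred in 10 of those 32 (31.2%), against 37 of 32851 promoters in all (0.113%) and 17 of 10415 promoters of genes tested (0.163%). The 10 were Hspa5, Hsp90b1 (2 matches), Calr, Canx, Pdia6, Dnajc3, Creld2, Ero1lb, Syvn1 and Derl3. Within this group, 2 of 10 were lower over both experiments (Hspa5 and Ero1lb), with a median log2 fold change of -0.30, and 3 of 10 were lower in experiment 1 (Hspa5, Ero1lb and Syvn1). Of all genes 10.4% and 14.1% were lower in these comparisons, so counts from 10 genes do not stand apart from that background. Among the 22 with a promoter and no ERSE match, 6 were lower and 1 higher over both, with a median of -0.19. Genes with the same letters differed widely, from -1.36 for Hspa5 to 0.15 for Dnajc3 in experiment 1, leaving out the scarce Derl3. ERSE-II occurred in 1 of 32 (Herpud1; 0.0304% of all promoters) and CARE in 3 of 32 (Herpud1, Chac1 and Asns; 3.45% of all promoters). The XBP1 element UPRE (TGACGTGG) occurred in 0 of 32 (0.563% of all promoters). A match describes the letters in this window and shows neither binding nor cause, and no match says only that these letters are not in it.

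**Figure D5:**
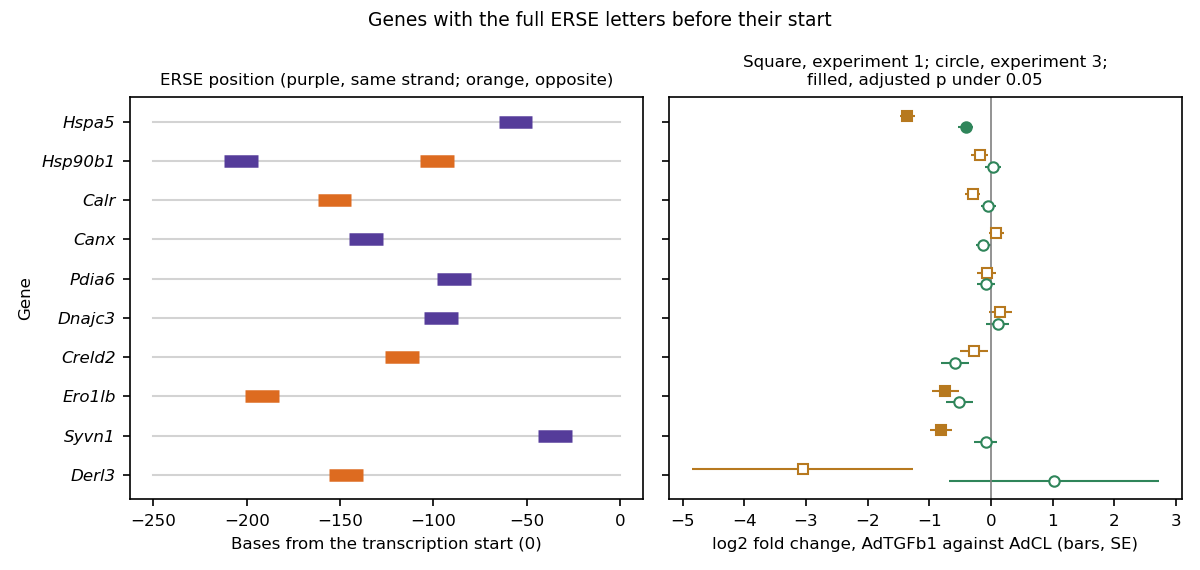
Left, position of the ERSE letters (bars; purple on the gene's strand, orange on the opposite strand) in bases from the transcription start for the 10 genes that hold them; right, their log2 fold change of AdTGFb1 against AdCL with SE in experiment 1 (squares) and experiment 3 (circles), filled at adjusted p under 0.05. The elements lie 26 to 212 bases before the start, and Hspa5 at -1.36 lies well left of Hsp90b1 at -0.18 and Calr at -0.30 in experiment 1.

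Other genes of the pathway, from 5 lists of 94 genes of which 91 were tested, moved in both directions. Over both experiments 6 of the 91 were lower and 8 higher, where 10.4% and 6.78% of all genes were, with a median of 0.11. Within experiment 1, 7 were lower and 14 higher, and within experiment 3, 2 were lower and 0 higher. Among 19 other folding and quality control genes 0 were lower (0 also at an unadjusted p under 0.05 over both) and 2 were higher over both. Uggt1, which tests glycoproteins for folding, stood at a mean of 159 CPM in AdCL and 241 CPM in AdTGFb1 (log2 change 0.59 ± 0.13, adjusted p = 0.0036), and Erp29 at 179 and 259 CPM (0.53 ± 0.12, adjusted p = 0.0045). Ganab, which trims glucose from glycans, had a log2 change of 0.38 ± 0.13 (adjusted p = 0.053). Among 17 other degradation genes 2 were lower, Ubxn4, which tethers the p97 ATPase to the ER (log2 change -0.68 ± 0.13, adjusted p = 0.00114), and Nploc4, a p97 cofactor (-0.40 ± 0.12, adjusted p = 0.0267), and 0 were higher; Ube2g2 had -0.44 ± 0.15 (adjusted p = 0.0561). With the plasma and B cell markers as a term, the adjusted p of Uggt1 was 0.0539 and that of Erp29 0.0230. The call of Nploc4 held in 5 of 12 left-out fits (without AdCL DC 943 or 949 or AdTGFb1 DC 52, 954 or 956; adjusted p up to 0.0827).

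Among 15 other sensors and regulators 0 were lower and 5 higher (Eif2ak1, Rtcb, Atf6b, Bak1 and Eif2ak2). Eif2ak1, a heme-regulated eIF2α kinase, had a log2 change of 0.69 ± 0.16 (adjusted p = 0.00471), Rtcb, the ligase that joins spliced Xbp1 mRNA, had 0.51 ± 0.12 (adjusted p = 0.00728), and Atf6b, the relative of Atf6, had 0.62 ± 0.20 (adjusted p = 0.0394). With the plasma and B cell markers as a term, the calls of Rtcb and Eif2ak1 were lost (adjusted p = 0.0594 and 0.0778). The call of Atf6b held in 4 of 12 left-out fits (without AdCL DC 944 or 949 or AdTGFb1 DC 954 or 956; adjusted p up to 0.0997). Among 17 other ATF4 targets 3 were lower, all amino acid transporter genes (Slc1a5, Slc7a11 and Slc3a2), and 1 was higher (Cebpb). Slc1a5, a glutamine carrier, had a log2 change of -0.70 ± 0.15 (adjusted p = 0.00336) and Slc7a11, the cystine carrier, -0.72 ± 0.17 (adjusted p = 0.00686). Leaving out the experiment term, or adding the plasma and B cell markers, ended the call of Slc7a11 (adjusted p = 0.0650 and 0.0551). Cebpb, a transcription factor that pairs with ATF4, rose from a mean of 126 ± 20.7 CPM in AdCL to 253 ± 111 CPM in AdTGFb1 (SD, n = 6; log2 change 0.90 ± 0.18, adjusted p = 0.00146). Its log2 change was 1.38 ± 0.18 (adjusted p = 7.13e-06) in experiment 1 and 0.43 ± 0.18 (adjusted p = 0.19, not called) in experiment 3. Among 23 other translocation, signal peptidase and glycosylation genes 1 was lower, Srpr, the signal recognition particle receptor (log2 change -0.45 ± 0.15, adjusted p = 0.0493), and 0 higher; its call held in 3 of 12 left-out fits (without AdCL DC 943 or AdTGFb1 DC 954 or 955; adjusted p up to 0.138). The calls of Nploc4, Atf6b and Srpr were each lost once sex, the endothelial markers or the plasma and B cell markers were a term. Rpn1, a subunit of the oligosaccharyltransferase, had a log2 change of 0.37 ± 0.14 (adjusted p = 0.0818), and Dad1, another subunit, -0.39 ± 0.16 (adjusted p = 0.0936).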

How the data were processed

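RNA of CD11b DCs was sequenced in 12 libraries, 3 per vector and experiment. Per the labels' protocols, RNA was taken with an RNeasy micro kit, selected for poly(A), made into libraries with a directional NEBNext Ultra kit and amplified by 10 PCR cycles. The authors deposited whole-number read counts per gene symbol, with no normalization; per the submitters' processing notes reads were handled with STAR 2.5.0c and HTSeq on build mm9, and the same notes name cutadapt 1.9.1, Trim Galore 0.4.1, DESeq2, bcl2fastq and FastQC 0.11.4. The gene annotation and strand setting of the counting are not named there, so overlapping genes are stated beside the genes they touch.

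Genes were filtered with filterByExpr on the 4 groups (13221 of 24391 kept) and scaled by TMM, and all tests were edgeR 4.0.16 quasi-likelihood F tests (two-sided, R 4.3.3) on the counts. Models had vector and experiment terms, or the 4 group means for contrasts within an experiment and their difference. The p-values were Benjamini-Hochberg adjusted over all genes tested, with a call at adjusted p under 0.05. The test steps were checked on simulated counts. Alternatives were RLE size factors, DESeq2 1.42.0, no low-count filter, at least 5 CPM in at least 3 libraries, terms for sex and for 3 marker lists, no experiment term, and each library left out. The term for sex was fitted only over both experiments and between the experiments. Terms for marker lists were fitted only over both experiments. Contrasts of the experiments within 1 vector, and role averages without genes of a mean under 10 CPM, were added after the data were seen. All 38 genes are accounted for, and from each of 5 lists of other pathway genes the 3 with the smallest adjusted p over both experiments and a mean of at least 1 CPM are named. The genes and lists were chosen with earlier results of these data known.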

Additional observations from a re-analysis of the deposited data

Results flagged for a closer look

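The vector effect differed between the experiments by a test of the difference itself (experiment 3 minus experiment 1, edgeR's quasi-likelihood test, adjusted over 13221 genes) for 5 of the 38 genes. The log2 difference was 0.95 for Hspa5 (adjusted p = 0.00217), 1.14 for Ppp1r15a (0.00184), -1.85 for Ero1l (0.00509), -0.76 for Pdia4 (0.0395) and 0.67 for Atf6 (0.0396). Sex differed between the vectors in experiment 1 alone and was not a term in this test, so its part was not tested. In CPM, the AdCL libraries of experiment 1 held the highest values of the 12 for Hspa5 and Ppp1r15a and the lowest for Pdia4; for Ero1l, AdCL DC 944 at 26.9 CPM and AdTGFb1 DC 956 at 27.6 CPM lay among them.

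The difference was also found for 2 of the named pathway genes outside the 38. Cebpb had -0.96 (adjusted p = 0.025), with 281, 419 and 336 CPM in AdTGFb1 of experiment 1 and 141, 187 and 156 CPM in AdTGFb1 of experiment 3. The call of Cebpb was lost without AdCL DC 7 or 949 or AdTGFb1 DC 52, 954 or 956 (adjusted p up to 0.0843). Rpn1 had -0.75 (adjusted p = 0.0335), with 213, 276 and 284 CPM in AdTGFb1 of experiment 1 and 191, 175 and 153 CPM in AdTGFb1 of experiment 3. The call of Rpn1 was lost without AdCL DC 7 or 949 or AdTGFb1 DC 52, 54, 955 or 956 (adjusted p up to 0.103).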

How the results depend on the processing

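No called gene among the 38 changed sign under any alternative run. Over both experiments, where 10 of 38 were called (9 lower, 1 higher), the count was 8 to 11 with 1 library left out. With a term for the mature migratory DC markers 0 were called, 0 lower and 0 higher, as for all 13221 genes (870 at an unadjusted p under 0.05), and the cause was not tested. With a term for sex 0 were higher and 7 lower, where 4.40% of all genes were higher and 6.95% lower. With a term for the endothelial markers 0 were higher and 7 lower, where 4.84% of all genes were higher and 8.37% lower. Within experiment 1, where 15 were called, the count was 10 to 15 with 1 library left out. Within experiment 3, where 1 was called, it was 0 with RLE size factors, 3 with DESeq2, 0 with at least 5 CPM in at least 3 libraries, and 0 to 4 with 1 library left out, the 4 being without AdCL DC 943. The difference between experiments was called for 5, and for 3 to 6 with 1 library left out (3 without AdCL DC 7). Experiment 3 against experiment 1 gave 12 calls, 6 with a term for sex and 8 to 13 with 1 library left out. Over all genes, counts moved by over 1.5 times as follows: over both experiments, 2271 became 1501 with sex and 0 with the migratory markers; the difference between experiments, 796 became 1286 with DESeq2, 1222 with no low-count filter and as few as 530 with 1 library left out; experiment 3 against experiment 1, 850 became 1346 with DESeq2 and 547 with sex; within experiment 3, 850 became as few as 498 with 1 library left out. No paired analysis was possible because the groups share no replicate numbers. Depth limits Derl3, Asns, Trib3 and Chac1, where a library held as few as 0, 4, 8 and 17 counts.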
